A study of Mus musculus with 6 samples.

Results

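The 10 genes described here encode RNA-binding regulators that are best known from neurons and glia: the ELAVL proteins Elavl2, Elavl3 and Elavl4, the NOVA protein Nova1, the RBFOX proteins Rbfox1, Rbfox2 and Rbfox3, the muscleblind proteins Mbnl1 and Mbnl2, and Quaking (Qk). They were read by every probe set of an Affymetrix mouse expression array whose platform annotation gives 1 of these symbols and no other, which found 39 of the 34945 probe sets with a single symbol, for 10 of 18193 genes. All mice were of line Slc6a4 JD60, made with a bacterial artificial chromosome, on a mixed FVB and C57BL/6J background, and they were adults of both sexes aged 6 to 12 weeks. In translating ribosome affinity purification (TRAP), ribosomes tagged in the cells where the transgene is active are captured from a tissue lysate with the mRNA they carry. Such captured RNA, here from serotonin neurons, made up the 3 IP samples. The 3 unbound samples are total tissue RNA left after the capture. All 6 came from midbrain and brainstem, with 5 mice pooled per sample, and both groups carry the transgene. What drives the tag is the Slc6a4 regulatory region, so a cell is sampled only as far as this transgene is active in it.

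ELAVL proteins bind U-rich and AU-rich stretches, mostly in 3′ ends and introns, and in neurons they stabilise mRNAs and steer splicing. NOVA, RBFOX and muscleblind proteins each bind a short RNA motif of their own, and promote or block an exon depending on which side of it they bind. Quaking proteins are abundant in oligodendrocytes and astrocytes, and act there on the splicing, export and stability of myelin mRNAs. The array reports the amount of RNA that a probe set captures, not the splicing these proteins control.

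The IP values below are the deposited log2 values with -0.23 added, the shift that brings 18 biotinylated hybridisation controls to the same mean in both groups. A log2 value of 5 is used as the detection limit, and a probe set was tested where at least 3 of the 6 arrays reached it. Called lower or higher means an adjusted p under 0.05 in limma, with a change of at least 2-fold. Of all 16835 probe sets tested, 43% were called lower in IP and 10.4% higher, with a median log2 change of -0.71. The groups were normalised apart, and with another scaling between them that median was -0.46 without scaling, 0.08 after quantile normalisation, 0.14 and 0.38 with arrays centred on medians (expressed and all probe sets), and -3.14 with poly-A spike controls. Changes are therefore also given against the median of all tested probe sets. The serotonin transporter Slc6a4 averaged 14.20 ± 0.12 across IP arrays against 9.05 ± 0.07 across unbound ones (SD, n = 3 each), and all 10 marker genes of serotonin neurons were called higher. Arrays of a group correlated over all probe sets at 0.996 to 0.999 (IP) and 0.994 to 0.997 (unbound). Of the probe sets averaging at least 5 in IP, 15.8% had the same value on all 3 arrays, against 0.481% in unbound RNA, so an SD in IP can be 0 and understates the error. Of the 30 tested probe sets of the 10 genes, 6 had 3 identical IP values, against 21.6% of all tested probe sets, and 8 had 2 identical ones.

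Elavl2, Elavl4 and Rbfox3 had log2 changes of -0.33, 0.02 and -0.41 in captured RNA and were not called. Nova1, Qk, Rbfox1 and Mbnl2 were called lower by 5.69-fold to 9.999-fold, and Elavl3, Mbnl1 and Rbfox2 were called lower by 2.26-fold to 3.04-fold, each gene read by its brightest probe set over the 6 arrays. None of the 10 was called higher by limma in that reading, and none had a positive change at an unadjusted p under 0.05. The count of 7 lower among 10 compares with 41.1% of the 10581 genes read the same way, and their median change was -1.54 against -0.65. The count depended on the scaling between groups: it was 6 with no shift, 5 after quantile normalisation, 4 with either median and 10 with the poly-A controls. The share of all tested probe sets called lower moved too. It was 6257 of 16960 with no shift, 3904 of 16735 after quantile normalisation and 15458 of 16268 with the poly-A controls. With the medians it was 3816 of 17555 (all) and 4435 of 17345 (expressed). With the mean of a gene's probe sets in place of the brightest, 5 of the 9 genes then tested were called lower. Of all genes read by that mean, 3179 of 8794 were lower. The mean takes in probe sets that were not tested. Captured and unbound RNA differ in the cells they come from as well as in ribosome binding, and these cannot be told apart. In such bulk samples fewer cells of a type and less RNA per cell cannot be told apart either.

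**Figure D1:**
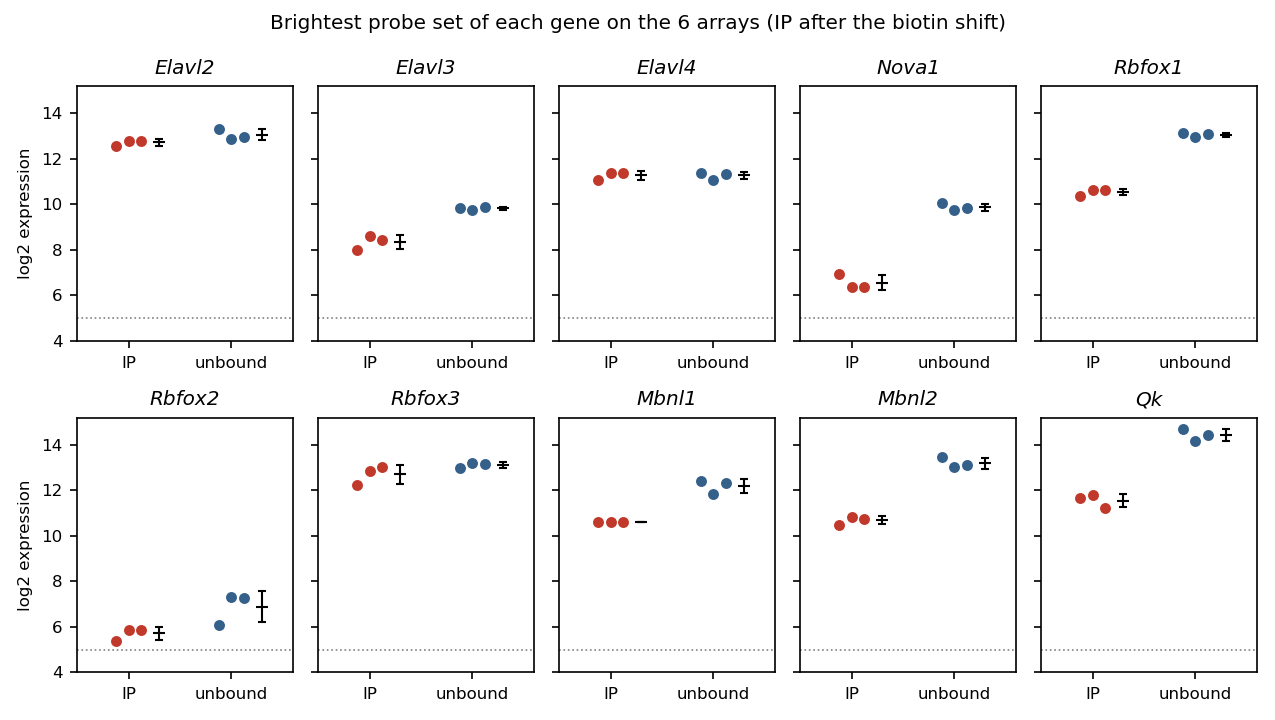
Log2 expression of the brightest probe set of each gene on the 3 IP arrays (red) and the 3 unbound arrays (blue), with the mean and SD beside each group and the detection limit of 5 dotted. Elavl4 and Rbfox3 overlap between groups, Elavl2 lies just lower in IP, and Nova1, Rbfox1, Mbnl2 and Qk lie between 2.51 and 3.32 log2 units lower in IP.

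Of the 39 probe sets, 30 were tested and 9 were below the limit on too many arrays. Of the 30, limma called 18 lower, 1 higher and 11 neither, where 43% of all tested probe sets were lower and 10.4% higher. All 3 IP values lay below all 3 unbound values in 21 of the 30, against 59.7% of all tested probe sets, and above them in 2, against 23.1%. The filter fixed the direction of 5 probe sets, since 4 reached the limit only in unbound RNA (3 of Qk and 1 of Mbnl2) and 1 only in IP (Mbnl1). The untested ones were 1 each of Elavl2, Nova1, Rbfox1 and Mbnl1, 2 of Mbnl2 and 3 of Rbfox2.

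**Figure D2:**
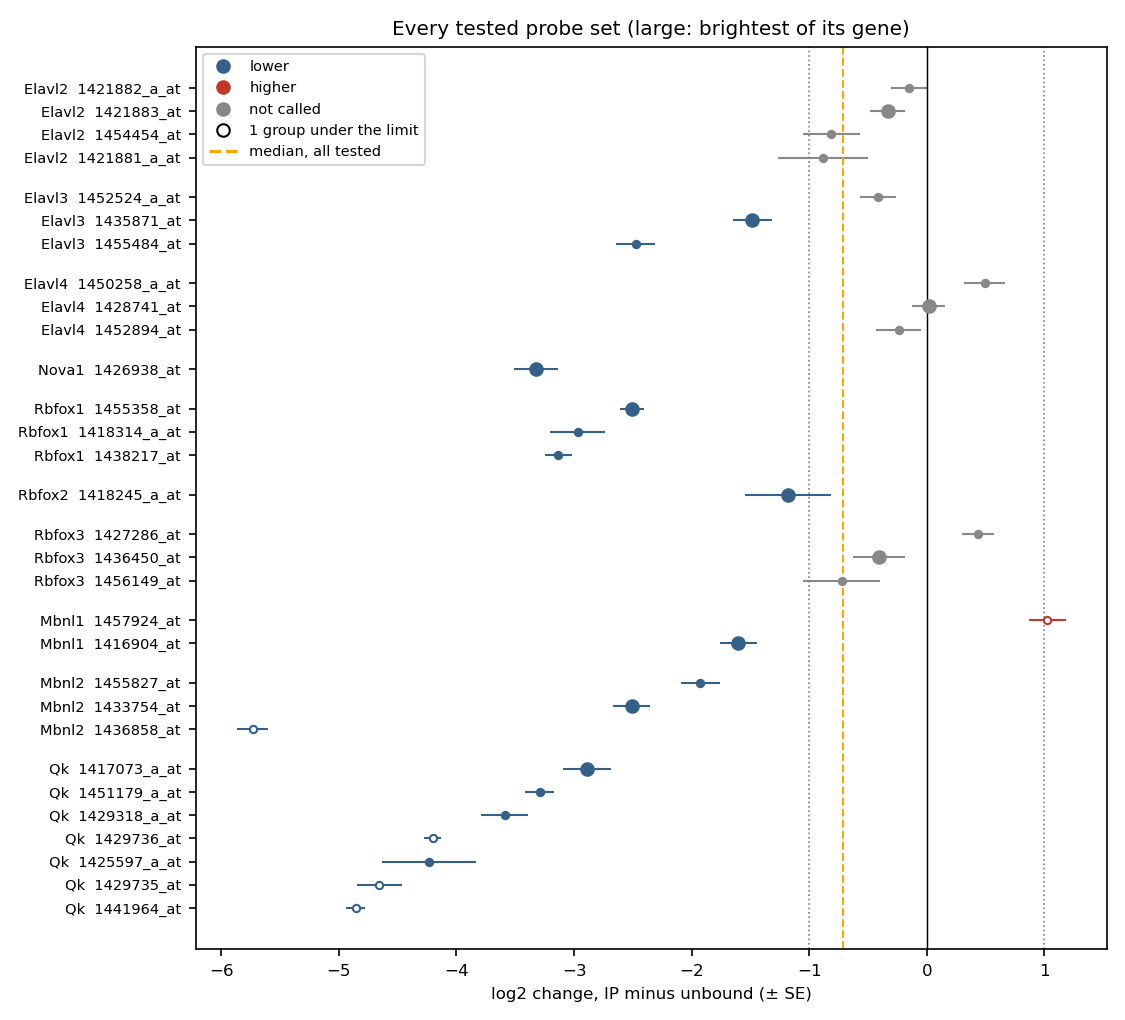
Log2 change, IP minus unbound, with its SE for each of the 30 tested probe sets, grouped by gene. Blue points were called lower, the red point higher and grey points neither. Large points are the brightest probe set of a gene, open points stayed under the limit throughout 1 group, dotted lines mark 2-fold and the dashed line is the median of all tested probe sets, -0.71. All 7 Qk probe sets lie at or below -2.89, while those of Elavl4 lie between -0.24 and 0.49.

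The ELAVL family is known for the mature neuronal state, and Elavl3 and Elavl4 are standard neuronal markers. Elavl4 (HuD), which stabilises mRNAs of growth and plasticity genes such as Gap43, had IP values of 11.06, 11.40 and 11.40 and unbound values of 11.39, 11.07 and 11.34 on its brightest probe set, 1428741_at. The groups overlapped, and the log2 change was 0.02 ± 0.14 SE (limma, adjusted p = 0.921). Its other probe sets read -0.24 ± 0.19 (1452894_at) and 0.49 ± 0.17 (1450258_a_at), with overlapping values in both cases. The latter had an adjusted p of 0.0403 in limma but stayed under 2-fold, and quantile normalisation (1.06) and either median scaling (1.52 and 1.29) made it a higher call. Measured against the median of all tested probe sets, Elavl4 stood 0.73 log2 units higher.

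Elavl2 (HuB) had IP values of 12.56, 12.80 and 12.80 against 13.33, 12.85 and 12.98 on its brightest probe set, 1421883_at. The IP values lay below the unbound ones by a narrow gap, and the change of -0.33 ± 0.15 was not called (limma, adjusted p = 0.0854). A further 3 tested probe sets of Elavl2 changed by -0.15 to -0.88, and none was called. The last of these, 1421881_a_at, had 3 nearly equal IP values of 7.57, 7.59 and 7.59 but unbound values of 7.58, 9.07 and 8.74. Without unbound replicate 1, its low unbound array, that probe set was called lower at -1.32. Elavl2 stood 0.38 above the median of all tested probe sets, and 0.57 below it after quantile normalisation.

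Elavl3 (HuC), whose protein promotes neuronal differentiation, was called lower, unlike Elavl2 and Elavl4. On 1435871_at it read 7.99, 8.60 and 8.45 in IP and 9.85, 9.76 and 9.88 in unbound RNA. The groups were well apart, at a log2 change of -1.48 ± 0.17 (limma, adjusted p = 3.28e-04). A second probe set, 1455484_at, read 7.11 on each IP array and 9.25, 9.65 and 9.87 in unbound RNA, a change of -2.47 ± 0.17 (limma, adjusted p = 3.25e-05). The last, 1452524_a_at, read 7.05 on each IP array and 7.15, 7.51 and 7.72 in unbound RNA, a change of -0.41 that was under 2-fold. The brightest probe set lost its call under quantile normalisation (-0.90) and both median scalings, while 1455484_at was called lower under all 7 scalings. The change of Elavl3 lay 0.77 log2 units below the median change of all tested probe sets.

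Nova1, a splicing factor first known as the target of antibodies in a paraneoplastic movement disorder, showed the lowest change of the 10 genes by their brightest probe sets. With the mean of probe sets Nova1 was at -2.18, less far down than Qk (-3.96), Mbnl2 (-2.26) and Rbfox1 (-2.24). Those means take in untested probe sets, 1 of Nova1, 1 of Rbfox1 and 2 of Mbnl2, but none of Qk. The untested one of Nova1 differed by -1.04 between groups, with every value below the limit, so this order is no measured ranking. The brightest probe set of Nova1, 1426938_at, had IP values of 6.94, 6.36 and 6.36 and unbound values of 10.04, 9.74 and 9.85. No array of either group came near the other group, and the change was -3.32 ± 0.19, a 9.999-fold lower level (limma, adjusted p = 1.61e-05). Only 9.4% of tested probe sets had a lower change. The other Nova1 probe set was below the limit everywhere, at 1.98 on each IP array and 2.75 to 3.38 in unbound RNA, so the reading of Nova1 rests on 1 probe set.

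Qk had the most probe sets of the 10 genes, and all 7 were called lower, with changes from -4.86 to -2.89. On the brightest, 1417073_a_at, the IP values were 11.66, 11.78 and 11.21 and the unbound values 14.71, 14.17 and 14.45. No IP array came near the unbound ones, with a change of -2.89 ± 0.20, or 7.42-fold lower (limma, adjusted p = 4.02e-05). Qk nevertheless remained well above the detection limit in captured RNA. The probe set 1451179_a_at read 9.13, 9.09 and 9.07 in IP and 12.56, 12.14 and 12.47 in unbound RNA, a change of -3.29 ± 0.12. The probe set 1429318_a_at changed by -3.59 ± 0.20 and 1425597_a_at by -4.23 ± 0.40, the latter with IP values of 5.50, 6.68 and 5.50. A suffix _a_at marks probe sets that match several transcripts of the same gene. The remaining 3, 1441964_at, 1429736_at and 1429735_at, were under the limit on every IP array and were at least 4.76-fold, 2.98-fold and 3.40-fold lower against that limit. All 7 were called lower under all 7 scalings.

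To show the sequence just before the start of the most lowered genes and of a gene that was not called, the 250 bases before the start are printed for Qk, Nova1 and Rbfox3, from RefSeq's annotation of assembly GRCm38.p6. The table held windows for 9 of the 10 members, Rbfox2 being the exception, and these are 3 of the 5 members with 1 listed start. The array does not show which start is used. Capitals mark the TATA box TATAAA, the CCAAT box CCAAT and the GC box GGGCGG on either strand, which 12.4%, 33.9% and 32.7% of 32841 such windows hold.
Qk, chr17:10319362-10319611, minus strand: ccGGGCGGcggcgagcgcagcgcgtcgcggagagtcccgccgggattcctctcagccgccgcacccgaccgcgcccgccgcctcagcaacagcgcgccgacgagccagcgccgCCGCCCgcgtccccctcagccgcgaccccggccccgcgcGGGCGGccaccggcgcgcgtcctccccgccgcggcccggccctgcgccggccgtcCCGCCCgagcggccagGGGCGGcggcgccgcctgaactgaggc
Nova1, chr12:46818768-46819017, minus strand: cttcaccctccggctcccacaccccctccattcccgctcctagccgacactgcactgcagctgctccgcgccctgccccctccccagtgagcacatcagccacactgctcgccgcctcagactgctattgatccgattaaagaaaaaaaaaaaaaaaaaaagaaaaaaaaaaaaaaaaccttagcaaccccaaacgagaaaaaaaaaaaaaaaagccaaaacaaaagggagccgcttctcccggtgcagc
Rbfox3, chr11:118761042-118761291, minus strand: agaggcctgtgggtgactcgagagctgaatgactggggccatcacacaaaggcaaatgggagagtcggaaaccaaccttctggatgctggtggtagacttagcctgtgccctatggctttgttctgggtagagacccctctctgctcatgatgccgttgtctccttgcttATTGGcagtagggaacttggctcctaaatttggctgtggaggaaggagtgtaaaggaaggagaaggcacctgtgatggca
The Qk window held 5 GC boxes and 52 CG dinucleotides, where the median over all windows is 6 and the upper quartile 16. The Nova1 window held 11 CG dinucleotides, with no match to these 3 motifs. The Rbfox3 window held 3 CG dinucleotides and 1 CCAAT box on the opposite strand. Of the other members with 1 start, Elavl3 had 20 CG dinucleotides and Mbnl2 had 10. These letters describe the windows and were not tested against the changes.

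In the RBFOX family, Rbfox1, a splicing regulator of synaptic and ion channel exons, had IP values of 10.39, 10.63 and 10.63 and unbound values of 13.12, 12.96 and 13.08 on 1455358_at. The groups were far apart, with a change of -2.51 ± 0.10, or 5.69-fold lower (limma, adjusted p = 4.25e-06). The 2 other tested probe sets were lower too, 1418314_a_at by -2.97 ± 0.23 and 1438217_at by -3.13 ± 0.12. The IP values of 1438217_at were all 5.54, just above the limit. All 3 were called under all 7 scalings.

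Rbfox3, whose protein is the neuronal nuclear antigen NeuN, was not called on any of its 3 probe sets. On the brightest, 1436450_at, the IP values were 12.24, 12.85 and 13.04 and the unbound values 12.98, 13.21 and 13.17. These overlapped, with IP replicate 1 lowest, and the change was -0.41 ± 0.22 (limma, adjusted p = 0.135). The probe set 1456149_at changed by -0.72 ± 0.33 and was called lower without unbound replicate 1, at -1.03. The probe set 1427286_at went the other way: its IP values of 7.51, 7.93 and 7.80 all exceeded the unbound values of 7.31, 7.16 and 7.46, at a change of 0.43 ± 0.14 that was under 2-fold. Its call was higher after quantile normalisation (1.31) and with either median (1.46 over all and 1.23 over expressed probe sets).

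Rbfox2, the most widely expressed gene of this family, had 1 tested probe set. This probe set, 1418245_a_at, read 5.40, 5.87 and 5.87 in IP and 6.09, 7.30 and 7.28 in unbound RNA. IP values were lower, by -1.18 ± 0.36 (limma, adjusted p = 0.0252), but unbound replicate 1 lay closer to IP than to the other unbound arrays. The call was lost without IP replicate 1 (-1.02), without unbound replicate 2 (-0.97) or 3 (-0.98), with no shift between groups (-0.94), after quantile normalisation (-0.04) and with either median (-0.15 and -0.38). The other 3 probe sets of Rbfox2 stayed below the limit on every array, with the highest value at 4.93.

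Muscleblind proteins shift splicing from fetal to adult patterns, and Mbnl2 is the family member with the larger known role in brain. On 1433754_at Mbnl2 read 10.48, 10.83 and 10.74 in IP and 13.47, 13.00 and 13.10 in unbound RNA. The groups did not approach each other, and the change was -2.51 ± 0.16, or 5.69-fold lower (limma, adjusted p = 2.61e-05). A second probe set, 1455827_at, changed by -1.93 ± 0.17 and lost its call only with the median over all probe sets (-0.90). Another, 1436858_at, read 2.15, 2.02 and 2.01 in IP and 7.66, 7.65 and 8.06 in unbound RNA, at least 6.93-fold lower against the limit. Of all tested probe sets, 0.214% had a lower change than this one, though a value under the limit gives no measured size.

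Mbnl1 gave opposite readings on its 2 tested probe sets. The bright one, 1416904_at, read 10.60 on each IP array and 12.42, 11.86 and 12.34 in unbound RNA, a change of -1.60 ± 0.16, or 3.04-fold lower (limma, adjusted p = 1.85e-04). With the mean of all 3 Mbnl1 probe sets, 1 of them untested and under the limit on every array, the change was -0.52. That is under 2-fold. The bright probe set was not called under either median scaling (-0.57 over all and -0.81 over expressed probe sets). The dim one, 1457924_at, read 5.82, 5.83 and 5.82 in IP and 4.46, 4.95 and 4.98 in unbound RNA. It was the only probe set of the 10 genes called higher, at 1.03 ± 0.15 (limma, adjusted p = 0.00122) and at least 1.77-fold against the limit. It passed the filter through the IP arrays alone, was not called without unbound replicate 1 (0.86), and fell below the filter under the poly-A scaling. The platform annotation lists a different source sequence for each, and which Mbnl1 transcript each captures was not tested.

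A constant shift between groups moves all genes together and leaves the order of changes among the members as it is. By brightest probe set, the order from the lowest was Nova1, Qk, Rbfox1, Mbnl2, Mbnl1, Elavl3, Rbfox2, Rbfox3, Elavl2 and Elavl4. Neighbours in this order differed by no more than their SEs for Rbfox1 and Mbnl2 (both -2.51), for Mbnl1 and Elavl3, for Elavl3 and Rbfox2, and for Rbfox3 and Elavl2. Quantile normalisation, which is no constant shift, moved Rbfox2 to -0.04, next to Elavl4 at 0.18, and placed Qk (-3.03) below Nova1 (-2.61). Of the 30 tested probe sets, 14 were called lower under all 7 scalings, where 18.3% of all tested probe sets were. The filter fixed the direction of 4 of these, 3 of Qk and 1 of Mbnl2, so the count is a description. The 14 were all 7 of Qk, all 3 of Rbfox1, 2 of Mbnl2, and 1 each of Nova1 and Elavl3. Under the poly-A scaling every tested probe set of the 10 genes was called lower, as were 15458 of 16268 probe sets in all.

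**Figure D3:**
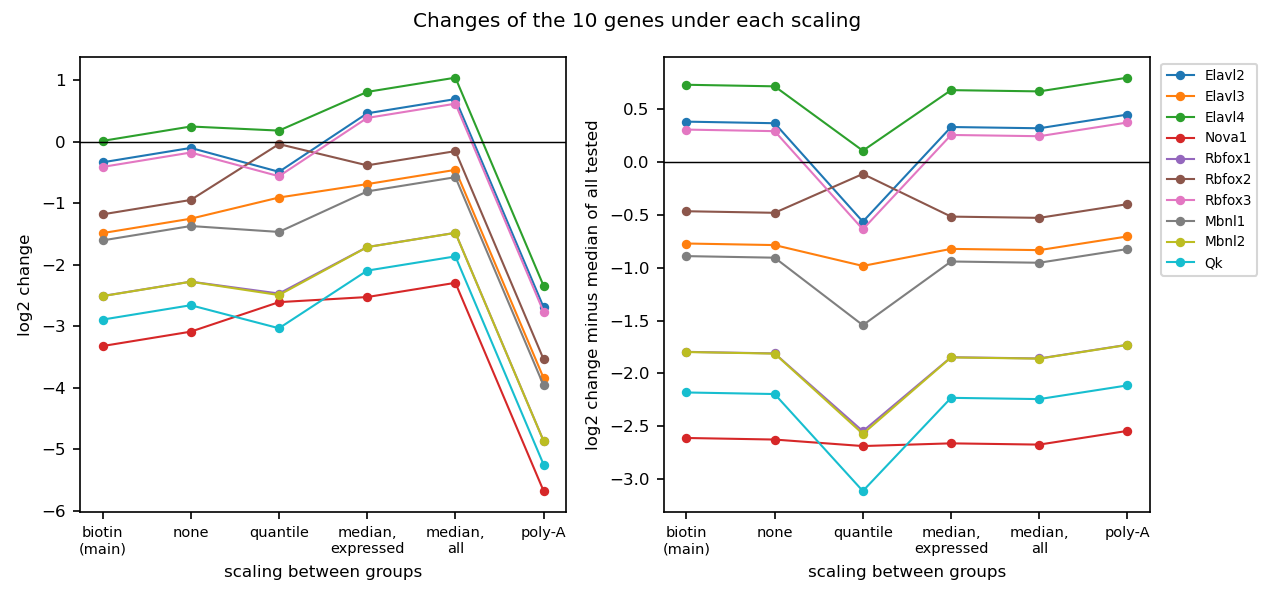
Log2 change of the brightest probe set of each gene under 6 scalings between groups (left), and the same change minus the median of all tested probe sets under that scaling (right). The constant shifts leave the distances between genes as they are. Elavl4 stands above the median in every setting shown. Elavl2 and Rbfox3 do so in all but quantile normalisation, where they fall to -0.57 and -0.64.

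Differences between paralogues were taken within each array, where any constant shift cancels, with each gene read by its brightest probe set alone. With 3 arrays against 3, the exact permutation test cannot go below p = 0.10, and the 7 pairs were adjusted together. The difference Elavl2 minus Elavl3 was 1.15 ± 0.17 (SE) larger in IP than in unbound RNA, and Elavl3 minus Elavl4 was lower in IP by -1.50 ± 0.10. Elavl2 minus Elavl4 was also lower in IP, by -0.35 ± 0.09. Rbfox1 minus Rbfox3 moved by -2.10 ± 0.20 and Rbfox1 minus Rbfox2 by -1.33 ± 0.45. Mbnl1 minus Mbnl2 was 0.91 ± 0.16 larger in IP. In these 6 pairs the IP and unbound differences did not overlap, and each had the smallest p that the exact two-sided permutation test allows, 0.10 (adjusted p = 0.117). All 6 kept their sign under quantile normalisation and with the mean of probe sets, but sizes moved. That mean takes in untested probe sets of Elavl2, Rbfox1, Rbfox2, Mbnl1 and Mbnl2, so it is no independent check. Rbfox2 itself did not pass the filter by that mean. Under quantile normalisation Elavl2 minus Elavl3 was 0.42 and Rbfox1 minus Rbfox2 was -2.43. With the mean of probe sets Mbnl1 minus Mbnl2 was 1.73. For Rbfox2 minus Rbfox3 the change of -0.77 ± 0.35 overlapped between groups (exact permutation p = 0.20) and turned to 0.52 under quantile normalisation. None of the 7 pairs could pass a threshold of 0.05 in this design.

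**Figure D4:**
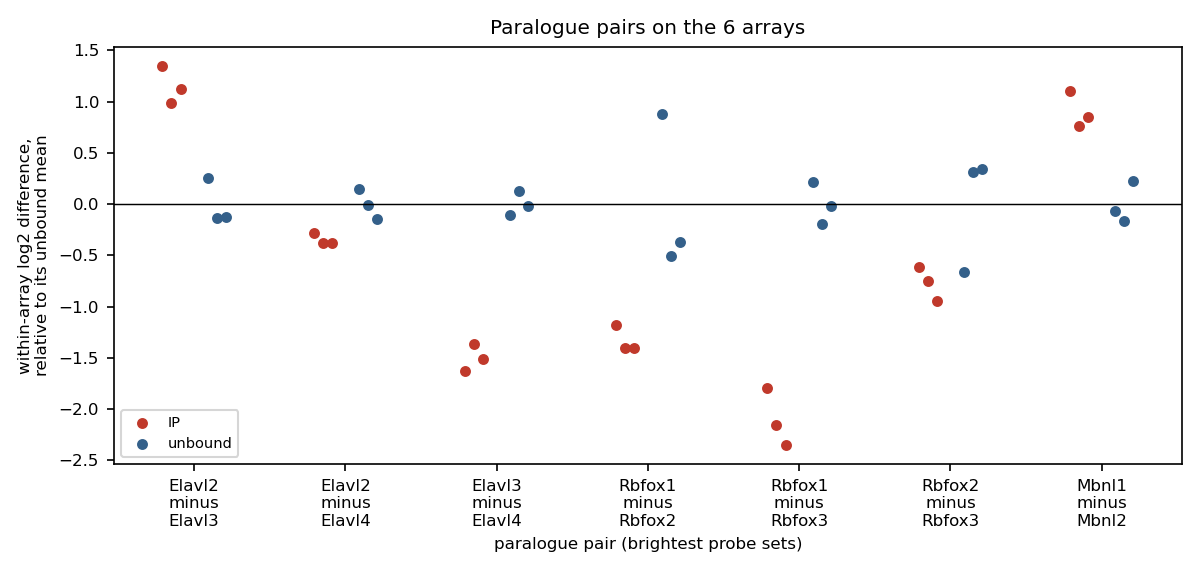
Within-array log2 difference between paralogues on the 3 IP (red) and 3 unbound (blue) arrays, relative to the mean unbound difference of that pair. Points of Rbfox1 minus Rbfox3 lie around -2.10 in IP, those of Elavl2 minus Elavl3 around 1.15, and those of Rbfox2 minus Rbfox3 overlap.

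Other regulators of RNA in neurons and glia were read from a list of 35 genes, of which 27 were tested. Of these, 16 were called lower by limma, 0 higher and 11 neither, while 2 had a positive change at an unadjusted p under 0.05. Of the 16, 4 were under the limit on all IP arrays, so the filter fixed their direction. Over all genes tested, 41.1% were lower and 10.4% higher. The list median was -1.19, against -0.65 over all genes tested. With the median over all probe sets as scaling the counts became 6 lower and 4 higher. Of all 17555 probe sets tested under that scaling, 3816 were lower and 5805 higher. Among paralogues of the members, Elavl1 (HuR), the widely expressed ELAVL gene, was called lower, with means of 5.61 ± 0.04 in IP and 7.84 ± 0.11 in unbound (SD, n = 3), a change of -2.23 ± 0.09. Nova2 was under the limit on every IP array and averaged 5.45 in unbound RNA. It was not called. The filter fixed its direction, and against the limit it was at least 1.37-fold lower in IP. Mbnl3 was below the limit on every array. Other genes called lower included Msi1 (-2.48), an RNA-binding protein of neural progenitors and astrocytes, and Rbms1 (-2.36). Ptbp3 and Rbm20 were under the limit on every IP array and were at least 3.23-fold and 3.90-fold lower. Khdrbs3 (0.74) and Fxr1 (0.58) were the genes with a positive change at an unadjusted p under 0.05, and both stayed under 2-fold.

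Transcripts that these proteins are known to bind moved both ways, and their counts stand beside 41.1% lower and 10.4% higher over all genes tested. Of 8 tested mRNAs known as ELAVL targets, Ache (1.62) and Gap43 (1.28) were called higher and 5 were called lower, among them the glutamate transporter Slc1a2 (-3.19), Bdnf (at least 2.82-fold lower) and Mapt (-1.59). Their median was -1.40. Of 6 tested mRNAs known as Quaking targets, Mag (-3.37), Cnp (-1.84) and Mbp (-1.67), all myelin genes, were lower. None was called higher by limma or had a positive change at an unadjusted p under 0.05, and Fyn (0.34), Cdkn1b (-0.63) and Map1b (-0.69) were not called. Of 17 tested genes with exons known to be regulated by NOVA, RBFOX or muscleblind proteins, Glra2, a glycine receptor subunit, was higher at 2.06, and 10 were lower, led by the ankyrins Ank3 (-2.97) and Ank2 (-2.76) and by Dab1 (-2.74). Their medians were -1.18 and -1.19. With the median over all probe sets as scaling, the lower counts of these 3 lists became 2, 1 and 4, and the higher counts 2, 1 and 2. Of all 17555 probe sets tested that way, 3816 were lower and 5805 higher.

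Markers of other cells of the tissue were lower in IP together with Qk, Nova1, Rbfox1 and Mbnl2. All 11 tested oligodendrocyte markers were called lower, with changes from -4.24 to -1.67 and a median of -3.61, and only Myrf was under the limit on all IP arrays. Their summed level, in log2, ran from 14.15 to 14.68 over the IP arrays and from 16.44 to 16.71 over the unbound ones. All 12 astrocyte markers were lower, with changes from -5.66 to -1.26 and a median of -3.00, 5 of them under the limit on all IP arrays, with a summed level of 13.54 to 13.78 (IP) and 15.60 to 15.91 (unbound). The changes of Qk, Nova1, Rbfox1 and Mbnl2 lie within both ranges. Those of Qk, Rbfox1 and Mbnl2 also lie within the range of the genes shared by most neurons (-3.04 to 1.78), but far below its median of 0.15. Of 7 tested markers of GABA, glycine and glutamate neurons all were lower, from -3.79 to -1.76, with a summed level of 11.73 to 12.26 (IP) and 14.57 to 14.90 (unbound). All 6 catecholaminergic markers were lower as well, from -4.90 to -1.47. Of these lower calls, 1 of GABA, glycine and glutamate neurons and 2 of catecholaminergic neurons were under the limit on all IP arrays. Genes under the limit on all IP arrays passed the filter through unbound RNA alone, so their direction was fixed and their change has no measured size. Whether these cells account for the lower values of the members was not tested.

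The 12 genes of a list shared by most neurons had a median change of 0.15, with 3 called higher (among them Uchl1 at 1.78 and Vamp2 at 1.73) and 3 lower (Nefm at -3.04, Map2 at -2.83 and Nefl at -1.88). The list ran from -3.04 to 1.78, a range that holds 9 of the 10 regulators, all but Nova1 (-3.32). Only Nefm, Map2 and Nefl were called lower, so lying within this range does not make a change typical of the list. The 4 tested endothelial and 5 tested pericyte markers were called lower. All 4 of the former and 3 of the latter were under the limit on all IP arrays, so the filter fixed their direction. Counting untested genes, 8 of 8 and 5 of 7 on those lists were under it. Of 6 tested markers of microglia 5 were lower, 3 of them under the limit on all IP arrays, and Aif1 was higher. Of 8 markers of oligodendrocyte precursors 7 were lower, 5 of them under the limit on all IP arrays, with Cspg5 at 0.79 not called.

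**Figure D5:**
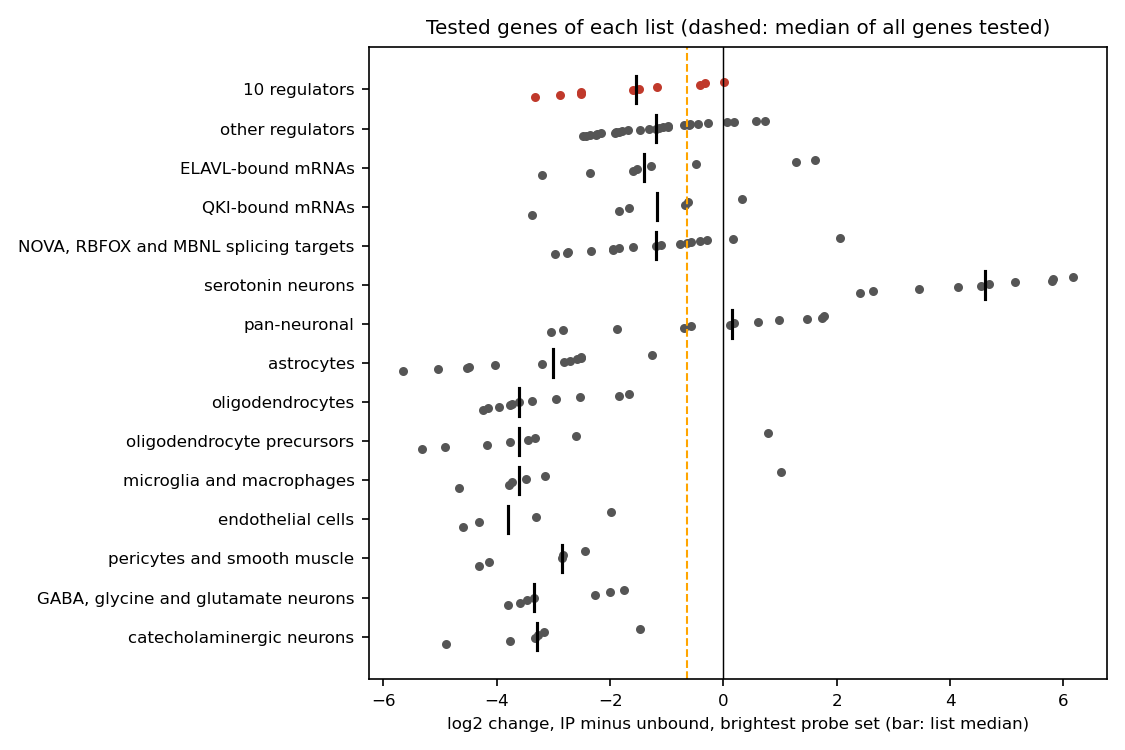
Log2 change, IP minus unbound, of each tested gene by its brightest probe set, with 1 row per list and a bar at the list median. The dashed line is the median of all genes tested, -0.65. The 10 regulators (red) run from -3.32 to 0.02 and overlap the ranges of the glial and pan-neuronal lists, while the serotonin neuron list starts at 2.41.

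Genes with a pattern most like that of the extreme members were found by the Euclidean distance between log2 values over the 6 arrays, with each gene centred on its own mean. Among 10581 genes, those nearest to Nova1 were Fgfrl1 (distance 0.18, change -3.37), Tbc1d23 (0.26 and -3.26) and P2ry13 (0.28). Those nearest to Elavl4 were Cdh8 (distance 0.09, change 0.06), Micu3 (0.11 and -0.00497) and Derl1 (0.13 and -0.00992). P2ry13 was under the limit on every IP array and was at least 1.34-fold lower.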

How the data were processed

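RNA of 3 IP and 3 unbound samples was amplified in 2 cycles from 20 ng of total RNA and hybridised to Affymetrix arrays, per the labels' protocols. GCRMA, run by the authors on each group apart per the design text, gave the 45101 deposited log2 values of an array. Its version is not stated by the sources at hand, and the log2 scale was read from the values. Following the design text, IP values were shifted by the biotinylated controls. Probe sets were named from the platform annotation, and those with several symbols (932) or none (9160) were left out. Every probe set with 1 symbol that reached log2 5 on at least 3 of 6 arrays was tested with limma 3.58.1 (lmFit and eBayes, R 4.3.3) on group, two-sided, with Benjamini-Hochberg adjustment over all 16835. The fit was tested on simulated data. Labels call the IP samples biological replicates and give each unbound sample the number of one.

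Named were all probe sets of the 10 genes, the paralogues Elavl1, Nova2 and Mbnl3, and the called genes with the largest change on each list. Other list members and the sequence windows were chosen after their values were seen. Members and lists were chosen with earlier results of these data known.

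Deviations from group means of same-numbered samples correlated at 0.29, 0.20 and 0.11 across probe sets, all over the preset bound of 0.1. A fit with these numbers as pairs was therefore run as an alternative. The SEs and p-values given above come from the fit on group alone and from permutations across all arrays, which leave the pairs out. IP replicate 3 correlated more with unbound replicate 2 (0.21). Alternatives were other scalings, filters and fit units, identical values left out, the pairs as a block, and each array left out.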

Additional observations from a re-analysis of the deposited data

How the results depend on the processing

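Depth on arrays is signal over background: the 9 untested probe sets, and the 5 below the limit throughout 1 group, give at most a bound. With the replicate pairs as a block, 18 member probe sets were called lower and 1 higher, as without it, all probe sets gave 7250 lower and 1756 higher, and no call of a member changed. Counts over all probe sets, 7233 lower and 1748 higher in the fit as reported, became 3816 and 5805 (all-probe-set median), 4435 and 4647 (expressed median), 3904 and 4297 after quantile normalisation, and 15458 and 55 with the poly-A controls. The filter at log2 7 left 4683 lower. Counted per gene they were 4354 and 1104 by the brightest probe set and 3179 and 889 by the mean of probe sets, where no count of member probe sets exists. By that mean, 5 of 9 member genes were lower, Mbnl1 lost its call (-0.52), and Rbfox2 was not tested. Member probe sets called higher were 4, 3, 3 and 0 under those scalings in the same order and 0 with the filter at log2 7, and 29 were lower with the poly-A controls. Member genes called lower were 4 with either median scaling, and 1 gene was higher with the median over all probe sets (Elavl4) and 1 with identical values left out. That gene was Mbnl1, then read by its dim probe set at 1.03. Elavl2 turned to 0.70 and 0.47 and Rbfox3 to 0.62 and 0.39 under the median scalings (all and expressed), and Elavl4 to -2.34 with the poly-A controls. Rbfox2 minus Rbfox3 turned to 0.52 after quantile normalisation. Leaving out 1 array at a time gave 17 to 20 member probe sets lower and 0 to 1 higher, and 6 to 7 member genes lower. The change of Elavl4, near 0, then ran from -0.08 to 0.13 and was negative without IP replicate 2 (-0.04), IP replicate 3 (-0.04) or unbound replicate 2 (-0.082). Causes of these moves were not tested.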
